A study of Mus musculus with 10 samples.

Results

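Heat shock proteins and the cochaperones that work with them were compared in cardiac tissue of male mice without HIPK2, a nuclear serine/threonine kinase, and of wild-type male mice. The set holds 34 genes, taken as every probe outside the controls whose gene name on the array equals one of 34 chaperone symbols. All 34 symbols were found, on 68 of the array's 56605 probes. The 5 knockout samples, labelled HIPK2 knockout, came from a C57BL/6 line in which CRISPR injection of embryos had removed 56 bases from exon 2 of Hipk2, per the series description. The 5 wild-type samples carry no other genotype label, and no sample carries a treatment. The mice's ages are not given, and 1 deletion is described, so a second knockout allele was not compared. Each sample was hybridised alone to a 1-colour Agilent array.

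Chaperones bind unfolded or partly folded proteins and help them fold, stay soluble or reach degradation. HSP70 proteins cycle between ATP and ADP states with the help of J-domain proteins, which deliver substrates and start ATP hydrolysis, and of exchange factors such as the BAG and HSP110 proteins, which release the nucleotide. HSP90 proteins act later, on kinases, hormone receptors and other clients, together with cochaperones. Small heat shock proteins hold unfolding proteins without ATP and are abundant in heart and skeletal muscle, where they guard myofibrils. Heat, oxidation and other proteotoxic stress release the transcription factor HSF1, which binds heat shock elements in promoters and raises the inducible genes, while close relatives of those genes are made at a high level without stress.

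The heat shock element is built of the unit nGAAn in alternating orientation, and was searched here as 2 adjoining units, GAANNTTC or TTCNNGAA, each its own reverse complement, in RefSeq promoter windows of build GRCm38.p6. Each window runs from 250 bases before to 50 bases after a transcription start. Of the 34 genes, 27 had a window, and 14 of these 27, or 51.9%, held a pair of units, against 17.0% of all 27025 genes with a window. The longer form of at least 3 adjoining units, GAANNTTCNNGAA or TTCNNGAANNTTC, which always holds the shorter one, stood in the windows of Hspd1, Hspe1, Hsph1 and Chordc1, 14.8% of the 27, against 0.662% of all genes. Hsp90aa1, Hspa8, Hsp90ab1, Hspa13, Hspa9, Hspb2 and Hsf1 had no window. A match describes letters and not a bound site.

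The promoters of Hspa1a and Hspb7 are printed because these genes had the largest difference below and above 0 between genotypes, and Hspa1a is set against Hspb7, whose window held no pair of units. The sequences run 5′ to 3′ on the gene's strand from RefSeq's table, position -1 is the last base before the start, and capitals mark pairs of units.
Hspa1a, chr17:34972157-34972406, minus strand, -250 to -1: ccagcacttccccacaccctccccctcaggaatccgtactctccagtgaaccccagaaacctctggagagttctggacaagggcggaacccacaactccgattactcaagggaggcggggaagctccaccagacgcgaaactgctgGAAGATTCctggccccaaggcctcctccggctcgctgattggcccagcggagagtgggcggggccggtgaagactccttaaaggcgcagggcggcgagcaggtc
Hspb7, chr4:141420529-141420778, plus strand, -250 to -1: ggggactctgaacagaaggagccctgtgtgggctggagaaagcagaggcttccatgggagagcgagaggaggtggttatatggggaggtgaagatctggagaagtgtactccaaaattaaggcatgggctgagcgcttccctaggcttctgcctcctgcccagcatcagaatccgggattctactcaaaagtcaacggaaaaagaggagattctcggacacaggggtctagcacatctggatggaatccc
The windows of Hspa1a and its neighbour Hspa1b on chromosome 17 shared 296 of 300 bases, or 98.7%, and the pair of units lay at -104 to -97 in both. The 4 differences, Hspa1a's base first, were C-207T, T-204C, T-2G and C26T. The sites with 3 or more adjoining units, and the one in Hspa1b, are short enough to compare by eye. Hsph1 holds a run of 3 units, Hspd1 and Hspe1 a run of 4 and Chordc1 a run of 5. That of Hspd1 and Hspe1 is 1 site read on both strands, in a promoter from which these genes are transcribed in opposite directions, with their starts 216 bases apart.
Hspa1b, chr17:34959324-34959353, minus strand, -115 to -86: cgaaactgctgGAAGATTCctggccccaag
Hspd1, chr1:55088054-55088081, minus strand, -149 to -122: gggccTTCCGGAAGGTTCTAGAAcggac
Hspe1, chr1:55088054-55088081, plus strand, -94 to -67: gtccgTTCTAGAACCTTCCGGAAggccc
Hsph1, chr5:149636281-149636307, minus strand, 9 to 35: ctgcagaTTCTGGAAAGTTCtcctcag
Chordc1, chr9:18292261-18292287, plus strand, -6 to 21: cgGAACGTTCGGGAAAATTCCTGAAgc

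Facts of the arrays that touch these genes were as follows. The 75th percentile of spot signal, to which every array was scaled, was 286 to 460 on knockout arrays and 462 to 542 on wild-type arrays, and no probe was saturated. Slide 1, with its own scan, held wild-type replicates 1 and 2 only. On slide 2, knockout replicate 1 shared the first row with wild-type replicates 3, 4 and 5, and knockout replicates 2 to 5 filled the second row, so a fit with slide and row rests on 1 knockout array. The 3 kept probes of Hipk2 did not differ, with log2 differences of -0.01, 0.04 and 0.11 (adjusted p of 0.960, 0.903 and 0.473 over probes); where they lie relative to the deleted bases is not known here, so they do not test the labels. Cardiomyocyte markers averaged 8.5 to 8.98 on the log2 scale on knockout arrays and 7.98 to 8.53 on wild-type arrays, so heart muscle RNA was present throughout. Atrial markers (Myl7, Myl4, Sln and Nppa) averaged -0.43 to 2.80 on knockout arrays and -0.93 to 5.07 on wild-type arrays, a wide range within each genotype. Wild-type replicates 2 to 5, at 3.11 to 5.07, lay above every knockout array, and wild-type replicate 1, at -0.93, lay below them all. In tissue RNA, fewer cells of a type and less RNA per cell cannot be told apart.

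None of the 34 genes passed the test between knockout and wild type (limma, Benjamini-Hochberg adjusted p under 0.05 over 20607 genes), whereas 4.94% of all genes did. The nearest was Bag2, at an adjusted p of 0.0775. At an unadjusted p under 0.05 there were 5 of the 34, namely Hspa1a, Hsp90aa1, Bag2 and Hsf2 with lower and Hspa12a with higher values in knockout, against 27.2% of all genes. No gene of the set had knockout values entirely on one side of its wild-type values, against 8.99% of all genes. The median log2 difference over the 34 was -0.08, with 11 values above 0 and 23 below, and the median over all genes was 0.03. The interval of the difference lay between -1 and 1, a 2-fold change either way, for 31 genes and within 0.5 for 23.

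**Figure D1:**
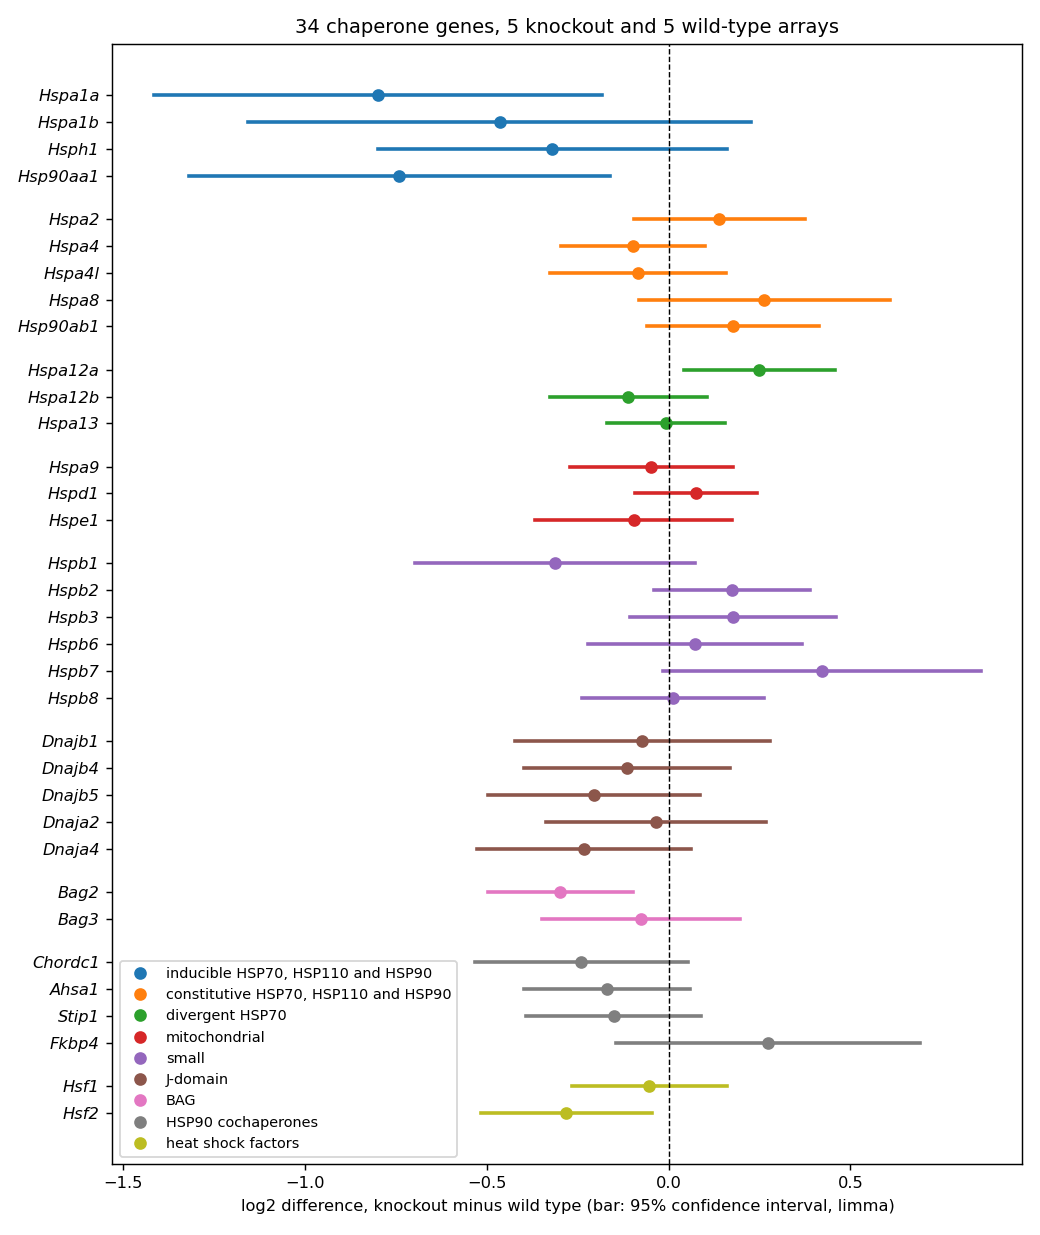
Log2 difference, knockout minus wild type, of each of the 34 genes (points) with its 95% confidence interval from limma (bars), grouped and coloured by class, 5 arrays per genotype. The 4 inducible genes at the top lie left of 0 with the widest bars, and the intervals of Hspa1a, Hsp90aa1, Hspa12a, Bag2 and Hsf2 leave out 0 before adjustment.

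The inducible genes were the lowest class in knockout hearts and also the most variable. All 4 had lower means in knockout, with log2 differences of -0.80 to -0.32 and a median of -0.60, and none passed the test. Hspa1a and Hspa1b encode the stress-inducible cytosolic HSP70, Hsph1 the inducible HSP110 that serves it as exchange factor, and Hsp90aa1 the inducible cytosolic HSP90. Values are log2 of processed signal over the array's 75th percentile, given for replicates 1 to 5, and levels of different probes are not compared. Wild-type replicate 4 had the highest value of all 10 arrays for each of the 4 genes, and the lowest value was on knockout replicate 2 or 5. Within wild type, replicate 1, the array with the lowest mean of atrial markers, was the lowest for each of the 4. The part of the atrial markers in these values was not tested.

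Hspa1a gave 0.48, -0.74, 0.07, 0.51 and -0.54 in knockout, against 0.30, 0.60, 0.54, 1.34 and 1.00 in wild type. Knockout replicates 1 and 4 lay above wild-type replicate 1 and below the rest of wild type, and the other 3 knockout arrays lay below all of wild type. Knockout averaged -0.05 ± 0.58 and wild type 0.75 ± 0.41 (SD over 5 arrays each), a log2 difference of -0.80 ± 0.28 (SE) with an adjusted p of 0.106 by limma. Its only probe lies on chromosome 17 at 35106766 to 35106825 of build mm9, the array's own. Without wild-type replicate 4 the difference was -0.65.

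Hspa1b gave -1.55, -2.89, -2.0, -1.87 and -2.58 in knockout, against -2.47, -1.78, -2.03, -1.03 and -1.25 in wild type. The genotypes overlapped widely, with knockout replicate 1 above 3 wild-type arrays. The log2 difference was -0.46 ± 0.31 (SE, limma adjusted p 0.359). The position given for its only probe, on chromosome 17 at 35093374 to 35093405 of mm9, covers 32 bases, against 60 for the Hspa1a probe. The probe's sequence shares no run longer than 5 of 60 bases with that of Hspa1a, although the transcripts themselves are close copies. How far either probe also binds the other gene's transcript was not tested.

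Hsp90aa1 gave 3.61, 3.26, 4.28, 3.45 and 3.13 in knockout, against 3.57, 4.22, 4.25, 4.93 and 4.46 in wild type. Knockout replicate 3 lay above 3 wild-type arrays, and wild-type replicate 1 lay below 2 knockout arrays. Knockout averaged 3.55 ± 0.45 and wild type 4.29 ± 0.49 (SD over 5 arrays each), with a log2 difference of -0.74 ± 0.26 (SE, limma adjusted p 0.110). A second kept probe gave -0.89 ± 0.23 (SE), with a limma adjusted p over probes of 0.0543, the smallest among the kept probes of the set. That probe passed, with lower values in knockout, under 8 alternatives, 7 of them with the software's own background subtraction. Its difference was -0.96 under median centring (adjusted p 0.0290) and -1.10 on slide 2 alone (0.0484). Of all 30693 kept probes, 1132 and 360 passed with lower values under these settings. The probe did not pass in the main fit, under quantile normalization, in the deposited value table, with the replicate block or with atrial covariates. With 1 array left out it passed only without knockout replicate 3 or wild-type replicate 1. The remaining Hsp90aa1 probe was not well above background on any array. The probe that represents the gene spans 111932511 to 111932796 of mm9 chromosome 12.

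Hsph1 gave 3.24, 3.46, 4.07, 3.47 and 3.22 in knockout, against 3.48, 3.72, 3.52, 4.52 and 3.82 in wild type. Apart from wild-type replicate 4 and knockout replicate 3 the arrays lay close together. Hsph1 had a log2 difference of -0.32 ± 0.22 (SE, limma adjusted p 0.364), and a second probe gave -0.33.

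**Figure D2:**
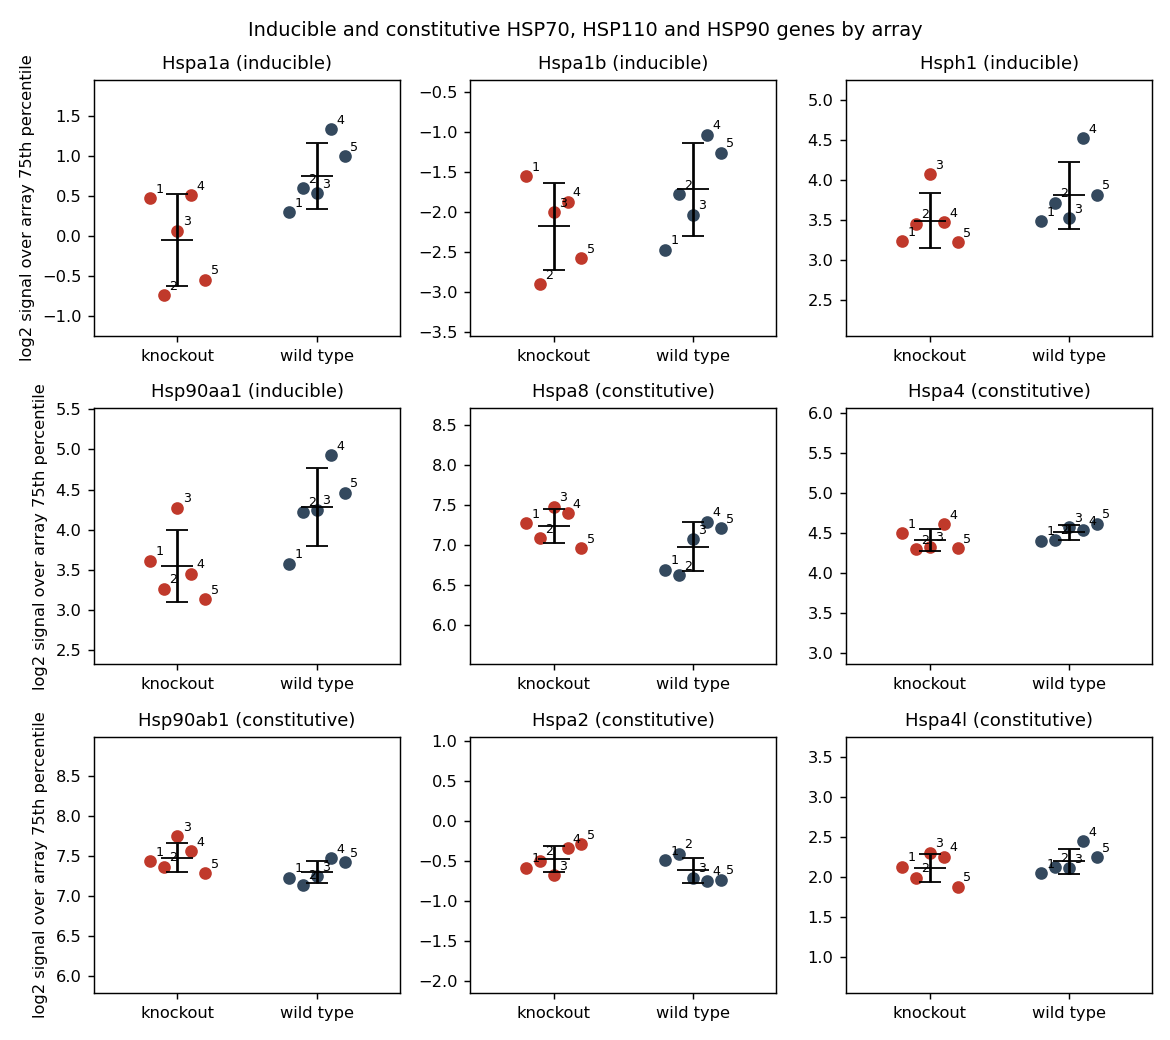
Log2 signal over the array's 75th percentile for the 4 inducible genes and 5 constitutive relatives, with knockout left of wild type in each panel. Points are arrays numbered by replicate, bars are mean and SD, and every panel spans the same height of 3.2 log2 units. The inducible genes scatter more than the constitutive ones within both genotypes, and wild-type replicate 4 is the highest point of each inducible panel.

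Spread within a genotype set the inducible genes apart more plainly than genotype did. The pooled SD was 0.57 for Hspa1b, 0.50 for Hspa1a, 0.47 for Hsp90aa1 and 0.38 for Hsph1, the 4 largest of the set, against a median of 0.20 over the set and 0.21 over all genes. Hspa1b had a spread above that of 93.8% of all genes and Hsph1 above that of 83.5%. The least variable were Hspa13 at 0.07 and Hspd1 at 0.08. Wild-type replicate 4 was the highest of the 10 arrays for 13 of the 34 genes, and knockout replicate 5 the lowest for 12. Those counts are a description, and what set these arrays apart was not tested.

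The constitutive relatives stayed closer to 0, with log2 differences of -0.10 to 0.26 and a median of 0.14, none of which passed. Hspa8, the HSC70 that handles routine folding and clathrin uncoating, gave 7.27, 7.08, 7.48, 7.40 and 6.96 in knockout, against 6.69, 6.62, 7.07, 7.28 and 7.21 in wild type. The 2 low wild-type values were those of slide 1, and the log2 difference of 0.26 ± 0.16 (SE, limma adjusted p 0.298) was 0.05 among the arrays of slide 2 alone. Its 4 probes ranged from 0.03 to 0.26. Hsp90ab1, the constitutive cytosolic HSP90, gave 7.44, 7.37, 7.75, 7.55 and 7.28 in knockout, against 7.23, 7.14, 7.24, 7.47 and 7.42 in wild type. The genotypes overlapped, and the log2 difference was 0.18 ± 0.11 (SE, limma adjusted p 0.305), falling to -0.08 under quantile normalization.

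The exchange factors Hspa4 and Hspa4l, members of the HSP110 family, had log2 differences of -0.10 ± 0.09 and -0.08 ± 0.11 (SE). Their intervals were -0.30 to 0.10 for Hspa4 and -0.33 to 0.16 for Hspa4l. Hspa2, an HSP70 best known from spermatogenesis, had 0.14 ± 0.11 (SE). All 3 kept probes of Hspa4 and all 4 of Hspa4l had values below 0.

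Each inducible gene was also set against a constitutive partner of its own family on the same array, and knockout was compared with wild type on that difference. This comparison was added after the gene values had been seen, and 4 pairs were compared. In each fit the partner's log2 signal was subtracted from every gene, and p-values were adjusted over 20606 genes. A difference of this kind shows that the pair changed unequally and does not say which of them changed. Of the 4, 2 passed, both with the inducible gene lower relative to its partner in knockout.

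Hspa1a relative to Hspa8, centred on the mean of the 10 arrays, gave -0.04, -1.07, -0.66, -0.13 and -0.75 in knockout, against 0.36, 0.73, 0.22, 0.81 and 0.54 in wild type. The 2 genotypes did not overlap, and the highest knockout array, replicate 1, lay 0.26 below the lowest wild-type array, replicate 3. The log2 difference was -1.06 ± 0.22 (SE, 95% interval -1.52 to -0.60), with a limma adjusted p of 0.0201. Relative to Hspa8, 2.98% of all genes passed with lower values in knockout, and 5.17% had all knockout arrays below all wild-type arrays. Hspa8 had the higher mean in knockout, so part of the -1.06 is its own 0.26. With the mean of all kept probes for every gene, which takes in the 4 of Hspa8, the pair was at -0.92 (adjusted p 0.0371).

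Hsp90aa1 relative to Hsp90ab1 gave -0.35, -0.63, 0.00, -0.63 and -0.68 in knockout, against -0.18, 0.55, 0.48, 0.93 and 0.52 in wild type. Knockout replicate 3 lay above wild-type replicate 1, and the other arrays were separated. The log2 difference was -0.92 ± 0.20 (SE, 95% interval -1.36 to -0.48), with a limma adjusted p of 0.0261, in a fit where 4.78% of all genes passed with lower values in knockout.

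The remaining pairs did not pass. Hspa1b relative to Hspa8 had a log2 difference of -0.73 ± 0.24 (SE, 95% interval -1.24 to -0.21, limma adjusted p 0.110), with knockout replicate 1 above wild-type replicates 1 and 3. Hsph1 relative to Hspa4 had -0.22 ± 0.23 (SE, 95% interval -0.73 to 0.29, limma adjusted p 0.547), where 1.54% of all genes passed with lower values in knockout. Without wild-type replicate 4 the Hsph1 pair was at -0.05.

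Both passing pairs lost the call under several settings while the difference kept its sign. Quantile normalization gave -0.85 for the HSP70 pair (adjusted p 0.0841) and -0.69 for the HSP90 pair (0.136). The atrial score as covariate, the mean of Myl7, Myl4 and Sln without Nppa, gave -0.94 (0.113) and -0.69 (0.137). On slide 2 alone the HSP70 pair was at -1.05 (0.0960) and the HSP90 pair at -1.10 (0.0216). Leaving out single arrays kept the call in 8 of 10 fits for the HSP70 pair, which lost it without knockout replicate 3 (0.0541) or wild-type replicate 2 (0.0570). It was kept in 4 of 10 fits for the HSP90 pair, which lost it without knockout replicate 2 (0.0522) or 4 (0.0621) and without wild-type replicate 2 (0.0674), 3 (0.0590), 4 (0.0523) or 5 (0.0596).

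**Figure D3:**
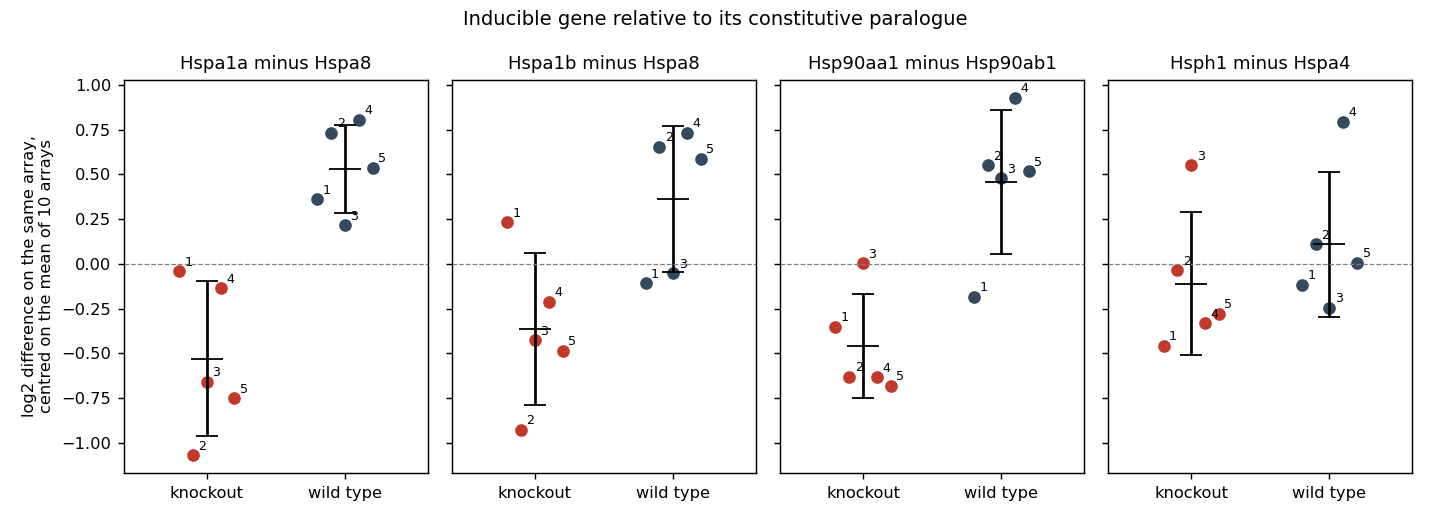
Log2 signal of an inducible gene minus that of its constitutive paralogue on the same array, centred on the mean of 10 arrays, with knockout left of wild type. Points are arrays numbered by replicate, and bars are mean and SD. All 5 knockout arrays lie below all 5 wild-type arrays for Hspa1a minus Hspa8, 1 array of each genotype crosses for Hsp90aa1 minus Hsp90ab1, and the genotypes overlap in the other panels.

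Among the divergent HSP70 proteins, Hspa12a gave 2.12, 1.82, 1.78, 1.84 and 1.97 in knockout, against 1.83, 1.65, 1.58, 1.51 and 1.70 in wild type. Wild-type replicate 1 alone reached into the knockout range. Its log2 difference was 0.25 ± 0.09 (SE, limma adjusted p 0.124), the only value above 0 among the 5 genes at an unadjusted p under 0.05. Hspa12b, the endothelial relative of Hspa12a, had -0.11 ± 0.10 (SE), and Hspa13, an HSP70-like protein of microsomes, had -0.01 ± 0.07 (SE). Endothelial markers lay lower on every knockout array, with means of 2.52 to 2.76 in knockout and 2.82 to 3.07 in wild type. Of their 8 genes 2 passed, both lower, where 2.97% of all genes passed with lower values. The part of the endothelial markers in the Hspa12b value was not tested.

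The mitochondrial chaperones had log2 differences between -0.10 and 0.07, the narrowest range of a class with at least 3 genes. Hspd1 is the HSP60 that folds imported matrix proteins, Hspe1 is its HSP10 lid, and Hspa9 is the matrix HSP70 mortalin. Hspd1 gave 6.43, 6.52, 6.40, 6.54 and 6.28 in knockout, against 6.37, 6.38, 6.29, 6.43 and 6.32 in wild type. Its log2 difference was 0.07 ± 0.08 (SE, 95% interval -0.09 to 0.24), Hspe1 had -0.10 ± 0.12 (SE, 95% interval -0.37 to 0.17), and Hspa9 had -0.05 ± 0.10 (SE, 95% interval -0.27 to 0.18). The intervals leave out a 2-fold change in either direction for all 3 genes. Hspd1 and Hspe1, which share the promoter printed above, had differences of opposite sign, both smaller than their SE. The second probe of Hspd1 gave -0.02, and the other probes of Hspe1 gave -0.14 and 0.02.

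The small heat shock proteins split into Hspb1 below 0 and the other 5 above it, with no call. Hspb7, a cardiovascular small heat shock protein tied to the sarcomere, gave 9.22, 9.20, 9.68, 9.38 and 9.04 in knockout, against 8.62, 8.32, 8.88, 9.22 and 9.36 in wild type. Wild-type replicates 1 and 2, those of slide 1, were the lowest, and replicates 4 and 5 lay within the knockout range. A log2 difference of 0.42 ± 0.20 (SE, limma adjusted p 0.198) was the largest above 0 in the set. It was 0.15 among the arrays of slide 2 and -0.05 under quantile normalization, so its direction turned with the scaling. A second Hspb7 probe gave 0.27. Cardiomyocyte markers had a median log2 difference of 0.52, with 9 of 10 above 0 and none past the test, and Tnni3 at 0.47 ± 0.13 and Mb at 0.60 ± 0.17 (SE) had the smallest p. Their part in the Hspb7 value was not tested.

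Hspb1 responds to HSF1 and encodes HSP27, which binds actin. Hspb1 gave 7.63, 7.26, 7.82, 7.73 and 7.21 in knockout, against 7.58, 7.60, 7.68, 8.30 and 8.07 in wild type. Wild-type replicates 4 and 5 were the 2 highest arrays and knockout replicates 2 and 5 the 2 lowest, as for Hspa1a. Hspb1 had a log2 difference of -0.31 ± 0.18 (SE, limma adjusted p 0.271). Under quantile normalization it became -0.62 (adjusted p 0.0336), and in the authors' deposited value table, whose columns share 1 median and 1 maximum, it was -0.62 (0.0331). Under both of these settings Hspb6, Hspb7 and Hspb8 also had values below 0.

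Hspb2 and Hspb3, muscle proteins that form a complex with each other, had log2 differences of 0.17 ± 0.10 and 0.18 ± 0.13 (SE). Hspb6, the HSP20 of heart and smooth muscle, had 0.07 ± 0.13, and Hspb8, which works with BAG3 in selective autophagy, had 0.01 ± 0.11 (SE). Hspb2 gave 5.41, 5.35, 5.13, 5.60 and 5.32 in knockout, against 5.19, 5.25, 5.22, 5.25 and 5.02 in wild type. Knockout replicate 3 alone lay within the wild-type range. Both kept probes of Hspb6 gave the same direction, at 0.07 and 0.08.

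**Figure D4:**
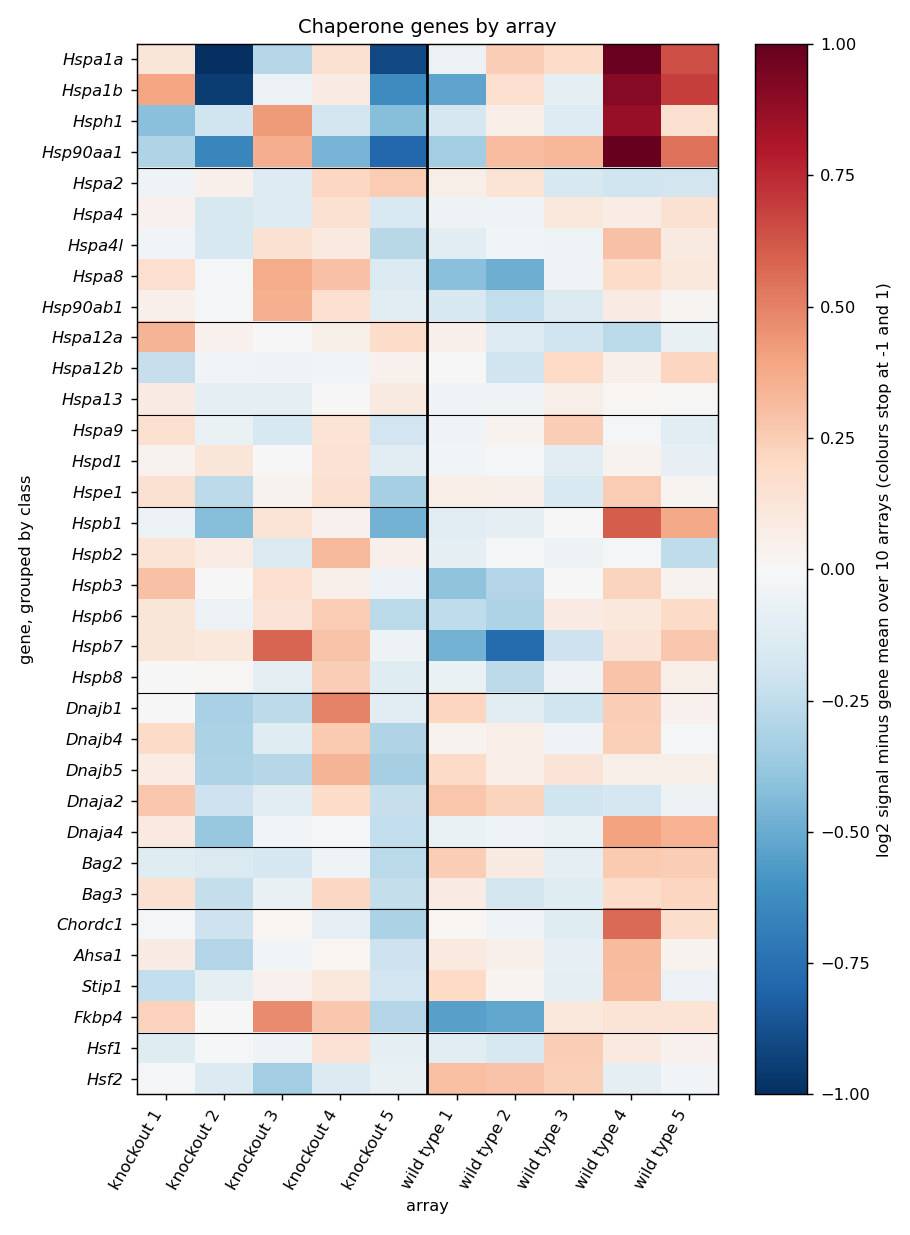
Log2 signal of the 34 genes (rows, grouped by class between the lines) on the 10 arrays (columns, knockout left of the vertical line and wild type right), minus each gene's mean over the 10 arrays. Colours run from blue at -1 to red at 1. The 4 inducible genes hold the strongest reds, each on wild-type replicate 4. They are blue on knockout replicates 2 and 5, though Hsph1 is only pale blue on knockout replicate 2. The mitochondrial rows are pale.

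The J-domain cochaperones all had lower means in knockout, with log2 differences of -0.23 to -0.03 and no call. Dnajb1, the classical heat-inducible HSP40, gave 2.93, 2.60, 2.66, 3.42 and 2.82 in knockout, against 3.13, 2.81, 2.72, 3.17 and 2.96 in wild type. Its highest array was knockout replicate 4, and the log2 difference was -0.07 ± 0.16 (SE, limma adjusted p 0.801). Dnaja4 had -0.23 ± 0.13 (SE), and its second probe -0.50 ± 0.17 (SE, limma adjusted p over probes 0.0990). Dnajb5 had -0.20 ± 0.13 (SE), with a knockout SD of 0.30 against 0.06 in wild type. Dnajb4 had -0.12 ± 0.13 (SE) and Dnaja2 -0.03 ± 0.14 (SE). The 6 probes of Dnajb4 ran from -0.58 to 0.29 and did not share a sign, and 3 of them were well above background on 1 to 3 knockout arrays only.

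The BAG cochaperones release nucleotide from HSP70 and steer its clients. Bag2, which curbs the ubiquitin ligase CHIP, gave 2.70, 2.67, 2.65, 2.77 and 2.55 in knockout, against 3.06, 2.90, 2.73, 3.08 and 3.06 in wild type. Wild-type replicate 3 alone lay within the knockout range. Knockout averaged 2.67 ± 0.08 and wild type 2.97 ± 0.15 (SD over 5 arrays each), with a log2 difference of -0.30 ± 0.09 (SE, limma adjusted p 0.0775). A second, dimmer Bag2 probe gave -0.02 ± 0.21 (SE). Without wild-type replicate 3 the adjusted p was 0.0475, and over the other 9 fits that left out 1 array it was 0.0992 or more. Bag3, a stress-induced partner of the small heat shock proteins that is needed for Z-disc upkeep, gave 6.30, 5.91, 6.07, 6.36 and 5.91 in knockout, against 6.23, 5.97, 6.03, 6.33 and 6.36 in wild type. The genotypes overlapped almost entirely, with a log2 difference of -0.08 ± 0.12 (SE, limma adjusted p 0.725).

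Of the HSP90 cochaperones, Chordc1, which binds HSP90 and is induced by heat, gave 2.37, 2.18, 2.41, 2.31 and 2.07 in knockout, against 2.41, 2.35, 2.27, 2.95 and 2.56 in wild type. Wild-type replicate 4 was again the highest array. Chordc1 had a log2 difference of -0.24 ± 0.13 (SE, limma adjusted p 0.266), and a second probe gave -0.49 ± 0.15 (SE, 0.0813 over probes). Ahsa1, the activator of the HSP90 ATPase, had -0.17 ± 0.10 (SE), and Stip1, the HOP adaptor between HSP70 and HSP90, had -0.15 ± 0.11 (SE). Fkbp4, the immunophilin FKBP52 of steroid receptor complexes, had 0.27 ± 0.19 (SE), with its 2 lowest arrays on slide 1, and its 3 probes ran from -0.10 to 0.27.

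The heat shock factors are the transcription factors of the response. Hsf1, the main stress-activated factor, is regulated mostly on the protein, and its transcript gave 2.69, 2.79, 2.77, 2.95 and 2.72 in knockout, against 2.71, 2.65, 3.06, 2.91 and 2.85 in wild type. Hsf1 had a log2 difference of -0.05 ± 0.10 (SE, 95% interval -0.27 to 0.16, limma adjusted p 0.753). Hsf2, a developmental factor that can pair with HSF1, gave -1.01, -1.13, -1.35, -1.13 and -1.07 in knockout, against -0.70, -0.72, -0.76, -1.09 and -1.03 in wild type. Wild-type replicates 4 and 5 lay within the knockout range, and the other 3 lay above it. Hsf2 had a log2 difference of -0.28 ± 0.11 (SE, limma adjusted p 0.126). Wild-type replicates 1 and 2, those of slide 1, were its highest arrays, and the difference was -0.18 among the arrays of slide 2 alone.

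Where a gene had several kept probes they mostly pointed the same way. Of the 68 probes, 63 were kept, 60 were well above background on all 10 arrays, and none passed in the fit across all 30693 kept probes, where 4.44% of probes did. Of 17 genes with several kept probes, 13 had differences of 1 sign, and Dnajb4, Fkbp4, Hspd1 and Hspe1 had both. The 5 probes left out were further probes of Hsp90aa1, Hspa12a, Hspa13, Hspa4 and Hsph1, each of which was represented by a brighter one.

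The wider chaperone network gave no call either. Of 70 further genes listed, 67 were measured, with a median log2 difference of 0.00. The J-domain proteins Dnajc3 and Dnajb14 had the smallest p of their list, at -0.31 ± 0.08 and -0.29 ± 0.09 (SE, limma adjusted p of 0.0565 and 0.0743). Dnajc3 is the P58IPK cochaperone of the endoplasmic reticulum. Hspa5, the BiP chaperone of that compartment, had -0.38 ± 0.14 (SE, 0.128). All 8 listed subunits of the TRiC chaperonin lay between -0.07 and 0.11, and with 5 prefoldin subunits the list ran from -0.15 to 0.19. Its smallest p belonged to the prefoldin subunits Pfdn5, at 0.19 ± 0.10, and Pfdn2, at -0.15 ± 0.09 (SE). Among other small heat shock proteins Cryab, the alpha-B crystallin of heart muscle, had 0.18 ± 0.13 and Hspb9 had 0.21 ± 0.31 (SE). Among exchange factors Bag6 had 0.11 ± 0.09 and Sil1 0.13 ± 0.10 (SE). Among other heat shock factors and their regulators Hsf2bp had 0.38 ± 0.21 and Hsf4 0.21 ± 0.18 (SE). Hsf2bp was well above background on 3 of 5 knockout arrays only.

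Immediate early genes, which respond within minutes to stress and to dissection, are given beside the inducible chaperones. Of 27 listed, 26 were measured, and 18 of these did not pass. The 7 that passed with lower values in knockout stand beside 2.97% of all genes, and the 1 with higher values beside 1.97%. The list was chosen with earlier results of these data known, so these counts are a description and not a test. The median log2 difference was -0.29, with 6 values above 0. The 4 with the smallest p, all lower in knockout, were the AP-1 subunit Junb at -0.94 ± 0.13, the growth-response factor Egr2 at -1.68 ± 0.24 and the cytokine-signal inhibitor Socs3 at -1.41 ± 0.24 (SE, limma adjusted p of 0.00904, 0.00944 and 0.0154), and Egr3. Egr2 was well above background on 3 of 5 knockout arrays, so it and Egr3 were kept through the wild-type arrays, where they were brighter, and their calls do not add support to the count. Egr3 was dim on all 5 knockout arrays, none of them well above background. Its limma adjusted p of 0.00625 belongs to the measured values, which rest on those dim knockout signals. Taken against the lowest signal well above background there, Egr3 was at least 1.15-fold lower in knockout, a bound that was not tested. The list's mean signal was 0.25 to 0.76 on knockout arrays and 0.74 to 0.99 on wild-type arrays, with knockout replicate 4 just above wild-type replicates 1 and 2. The highest knockout array was replicate 4 for Hspa1a, replicate 1 for Hspa1b and replicate 3 for Hsp90aa1 and Hsph1. The part of these genes' response in the values of Hspa1a, Hsp90aa1 and the other inducible chaperones was not tested.

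Some markers of other cell types in the tissue passed the test between genotypes. Counting each list as measured, macrophage markers had 10 genes and 1 call, with lower values in knockout for all 10, and Cd163 passed at -0.77 ± 0.18 (SE, limma adjusted p 0.0389). Endothelial Kdr and Emcn passed at -0.80 ± 0.13 and -0.41 ± 0.10 (SE), and fibroblast Postn passed at -1.0 ± 0.21 (SE), all lower. Neutrophil Elane and lymphocyte Cd4 passed with higher values, at 0.60 ± 0.15 and 0.62 ± 0.16 (SE). The neutrophil list as a whole had a median of -0.42, with S100a8 at -0.54, S100a9 at -0.57, Ly6g at -0.42 and Retnlg at -2.14, none of which passed, and the lymphocyte list a median of 0.05. These were 2 of 8 endothelial, 1 of 8 fibroblast, 1 of 7 neutrophil and 1 of 5 lymphocyte genes. Over all genes, 2.97% passed with lower and 1.97% with higher values in knockout. Atrial and fat markers had median differences of -2.49 and -2.01, with wide spread and no call in 4 genes each. Among them were Myl4 at -1.98 ± 0.90, Myl7 at -3.13 ± 1.64, Car3 at -2.29 ± 0.76 and Cidec at -1.73 ± 0.67 (SE). In knockout, signal clearly exceeded background in only 2 samples for Car3 and Retn, 3 for Cfd and 1 for neutrophil Retnlg. Each of these genes was kept through wild type, where it was brighter. Their differences and the fat median rest partly on dim knockout signals, so the sizes are uncertain. Markers of smooth muscle and pericytes, skeletal muscle, red cells, and nerve and glia had no call, and their medians were 0.01, 0.20, 0.19 and 0.03. Their 2 genes of smallest p were Cspg4 at -0.48 and Pdgfrb at -0.49, Tnni2 at 0.29 and Pvalb at 1.66, Hba-a1 at 0.33 and Slc4a1 at -0.26, and Th at 0.20 and Dbh at 0.53. With the atrial score as covariate, Hspa1a was at -0.60 ± 0.32 and Hsp90aa1 at -0.49 ± 0.28 (SE), against -0.80 and -0.74 without it. Bag2 stayed at -0.32 ± 0.11 (SE).

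**Figure D5:**
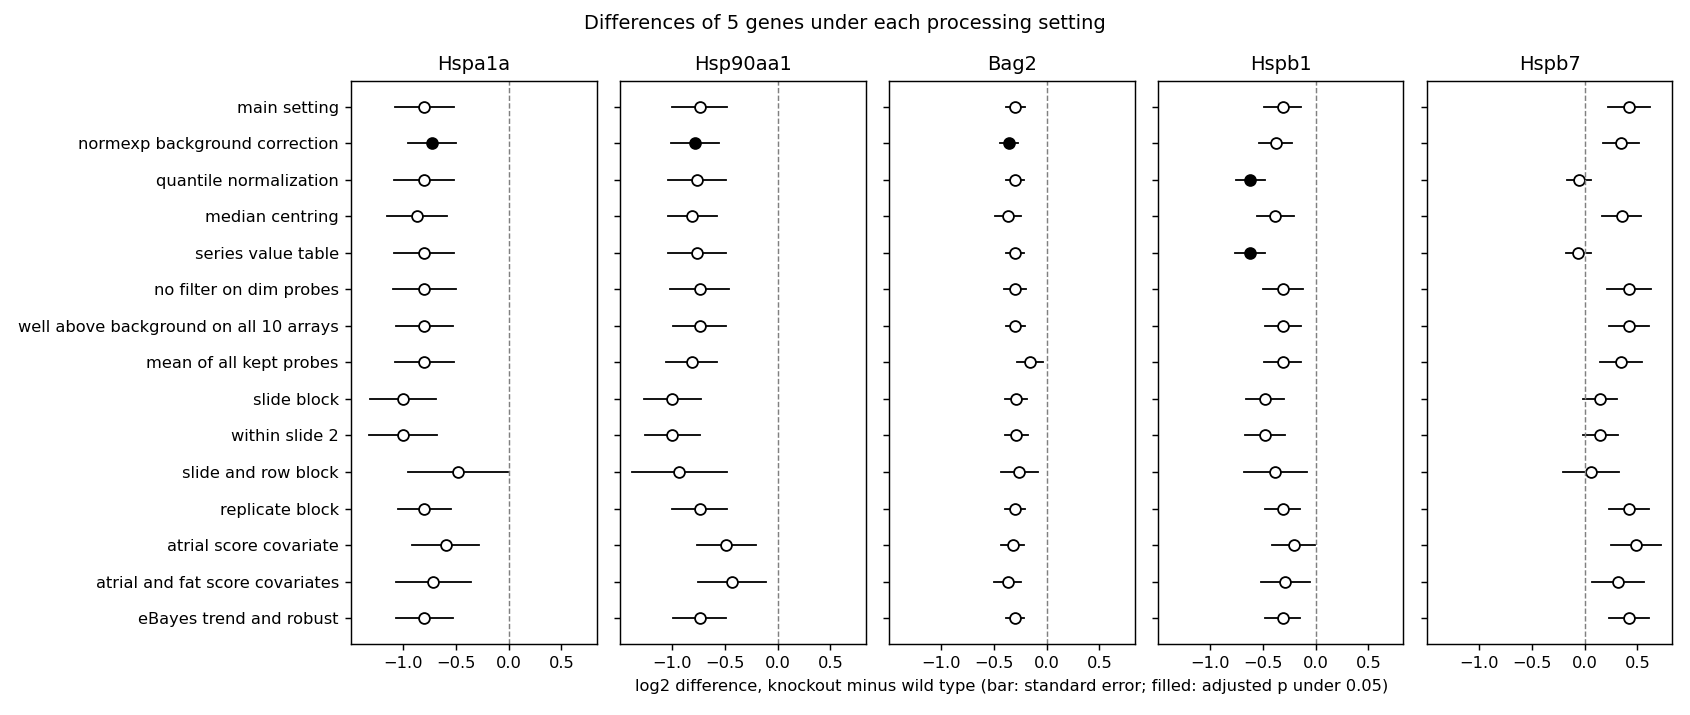
Log2 difference, knockout minus wild type, of Hspa1a, Hsp90aa1, Bag2, Hspb1 and Hspb7 under the main setting and 14 alternatives (rows), with its standard error (bars). Filled points have an adjusted p under 0.05. Hspa1a, Hsp90aa1 and Bag2 are filled under normexp background correction, Hspb1 under quantile normalization and in the deposited value table, and Hspb7 crosses 0 under those same 2 settings.

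Called through the brightest probe, an inducible gene passed only under normexp among the alternatives run, while the second Hsp90aa1 probe also passed under others. With normexp in place of the software's own background subtraction, Hsp90aa1 at -0.79 (limma adjusted p 0.0387), Hspa1a at -0.73 (0.0451) and Bag2 at -0.36 (0.0228) passed, all lower in knockout. That is 3 of 34, where 4.26% of all genes passed with lower values. The differences themselves barely moved, and the same setting called 2233 genes higher and 878 lower, against 405 higher and 612 lower with the software's subtraction. On slide 2 alone, Hspa1a and Hsp90aa1 were both at -1.0 (adjusted p of 0.136 and 0.0847). There all wild-type arrays lay in the first row and knockout replicates 2 to 5 in the second, so genotype and row largely coincided. With slide and row in the fit, which rests on 1 knockout array, Hspa1a was at -0.48 and Hsp90aa1 at -0.93. In that fit Hspa1b was at -0.11 and Hsph1 at -0.72.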

How the data were processed

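The deposited array files give the intensity of each spot, not log-transformed. Agilent Feature Extraction 10.7.1.1, named in the submitters' processing notes, wrote them. Its background subtraction within each array is recorded per the file headers. A log2 value table that the authors also deposited has equal column medians of 4.74, matches its own arrays at r of 0.918 to 0.996 after probe means were removed, and served as an alternative; how it was made is not given in the sources used here.

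Log2 processed signal was scaled to the array's 75th percentile, without control and outlier spots. Probes well above background on at least 4 of 5 arrays of a genotype were kept (30693 of 56605), and the brightest kept probe represented each of 20607 genes. Genotypes were compared across all genes with limma 3.58.1 in R 4.3.3, without covariates, and p-values were adjusted by Benjamini-Hochberg at 0.05. SE and 95% intervals are limma's. Gene names came from RefSeq accessions for 32994 probes and from the array for 23611. Positions are mm9; exon annotation of that build was not used. Tested on simulated data with 200 of 20597 genes changed, the fit recovered 19.5% of changes of 0.5, 81.5% of 1 and 96.5% of 2 on the log2 scale. The changed genes were drawn from all genes. Recovery for genes as variable as the inducible chaperones was not measured, so these shares do not apply to them.

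The labels number samples within a genotype and do not say that each is a separate mouse, so the spread behind each p-value may be technical. The 34 genes and all lists were chosen with earlier results of these data known. Every gene of the set is described; from each other list up to 4 genes past the threshold are named by smallest p, or else 2 with the smallest p. The values of 1 such gene are not reported here. Other named genes or probes were chosen after their values were seen. The comparison of paralogues was added after seeing the data. The number of arrays, and signal over background for dim probes, limit the precision. Same-numbered samples of the 2 genotypes did not deviate together (correlations of -0.11 to 0.05).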

Additional observations from a re-analysis of the deposited data

Results flagged for a closer look

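In 68 tests for a sample far from the others of its genotype (34 genes in each genotype), 1 met the limit, and chance flags about 1 in 20 groups. Hspb2 on wild-type replicate 5 had a log2 signal of 5.02, with the other 4 wild-type arrays at 5.19 to 5.25, a gap that took 0.717 of the genotype's range against a limit of 0.71 for 5 samples. The log2 difference of Hspb2, 0.17, did not pass the test.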

How the results depend on the processing

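Across 24 alternatives, 20 called none of the 34 genes, and normexp called 3, quantile normalization, the deposited value table and leaving out wild-type replicate 3 called 1 each; all were lower in knockout. For the set's probes the count was 5 under normexp, where 3423 of all 30693 kept probes passed higher and 1094 lower. Of the 5, a dim Dnajb4 probe was higher in knockout, at 0.38, and the others were lower. That probe was well above background on 1 knockout array only. The count was 1 (Hspb1) under quantile normalization and the value table. It was 1 (the second Hsp90aa1 probe) under median centring, probes well above background on all 10 arrays, the slide block, slide 2 alone and the trended robust fit. With 1 array left out it was 0 to 2. Signs changed in 41 of 816 gene and setting combinations, none of them called, 11 of them for Hspb8. Over all genes, against 1017 calls, normexp gave 3111, no filter 173, slide 2 alone 458, slide and row 0 with 2788 at an unadjusted p under 0.05, the atrial covariate 57, atrial and fat covariates 8, and single arrays left out 282 to 940. Higher calls were 39.8% of them, 71.8% under normexp and 19.9% under median centring; without a filter the median of all genes was 0.24. The other lists, with 14 calls, had 38 under normexp, 3 without a filter, 8 with the slide block, 7 on slide 2, 0 with slide and row, 1 with the atrial covariate, 0 with atrial and fat, and 6 to 11 with 1 array left out. With the replicate number as a block, calls were 164 over all genes, 6 in the other lists and 0 of 34; the numbers share no known pairing, and no sample deviated most like the one with its own number. Hspa1a relative to Hspa8 was no longer called under quantile normalization or in the value table (-0.85 in both), with the slide block or slide 2 alone (-1.05), slide and row (-0.56), the atrial covariate (-0.94) and atrial and fat (-0.95), and ranged from -1.18 to -0.93 with 1 array left out. Hsp90aa1 relative to Hsp90ab1 was no longer called under quantile normalization or in the value table (-0.69 in both), slide and row (-0.99), the atrial covariate (-0.69) and atrial and fat (-0.61), and ranged from -1.08 to -0.80. The causes were not tested. Hspa1b relative to Hspa8 and Hsph1 relative to Hspa4 were called under none of the settings run.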
